A study of Mus musculus with 10 samples.

Results

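Hedgehog signalling and theca cell genes were described here through 10 genes of the 24306 in the deposited tables: the ligand genes Dhh and Ihh, the pathway genes Ptch1, Hhip and Gli1, and Insl3, Mgarp, Aox4, Fbln5 and Thbs2. The members were chosen by gene symbol, each symbol matched 1 gene, and all 10 passed the low-count filter of every comparison. After adjustment over all genes, edgeR called 0 of 10 members for all Rar-deleted ovaries over controls, where it called 0.111% of 18954 genes tested. It also called 0 members for Rar mutants (0.00972% of 20570 genes) and for Dmrt1 het Rar mutants (0.0194% of genes) over controls, and 0 between the mutant groups (0% of genes). At an unadjusted p under 0.05, Gli1 was lower in all Rar-deleted ovaries and in Dmrt1 het Rar mutants than in controls, and Ihh and Dhh were lower and Hhip higher in Rar mutants than in controls. By the same measure Ihh, Dhh and Ptch1 were higher and Hhip lower in Dmrt1 het Rar mutants than in Rar mutants. Such p-values were common over all genes: over controls, 8.47% of genes tested had one in the pooled Rar-deleted ovaries, 9.45% in Rar mutants and 17.3% in the Dmrt1 het group, as did 16.9% between the mutant groups. The 1 of 10 members at this level in the pooled comparison is near that share, and the 1 in the Dmrt1 het group is below it.

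Polyadenylated RNA was sequenced from whole ovaries of 6-week-old mice, all of a mixed background of C57BL/6 with 129. Rar mutants (n = 3) were Dmrt1 +/+ with floxed alleles of Rara, Rarb and Rarg, the retinoic acid receptor genes, and Sf1-Cre. Dmrt1 het Rar mutants (n = 2) were Dmrt1 fl/+ with the same floxed receptor alleles and Sf1-Cre. Controls (n = 5) were Dmrt1 +/+ with the same floxed receptor alleles and no Cre, so the floxed receptor alleles were common to all groups. In Sf1-Cre the recombinase is under the Nr5a1 promoter, which works in gonadal somatic cells and not in germ cells. With no ovary carrying Cre alone, effects of Cre and of receptor loss cannot be told apart. The series' title addresses whether ovarian somatic development depends on retinoic acid signalling. Its design text describes 2 genotypes with 5 replicates apiece, which matches the labels once both Cre-positive groups are pooled as Rar-deleted ovaries.

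In the ovarian follicle, granulosa cells secrete the Hedgehog ligands encoded by Dhh and Ihh, and the surrounding theca and stromal cells receive them. A ligand binds the receptor encoded by Ptch1, which otherwise holds the membrane protein SMO inactive, and the GLI transcription factors then switch on target genes, among them Ptch1, Gli1 and Hhip themselves. Insl3 encodes a peptide hormone made by theca cells, which also make the androgens that granulosa cells turn into oestrogen.

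Promoter windows are shown for Ihh and Dhh, whose levels followed each other across libraries, for Ptch1 and Hhip, which GLI factors are known to activate, and for Fbln5, the member with a match to a motif searched. They are RefSeq windows on GRCm38.p6 from 250 bases before to 50 bases after a start site, written on the gene's strand, which is the minus strand for all 5. They lie at chr1:74951623-74951922 (Ihh), chr15:98898491-98898790 (Dhh), chr13:63565686-63565985 (Ptch1), chr8:80057959-80058258 (Hhip) and chr12:101818435-101818734 (Fbln5, second of 2 entries). Capitals mark a match to AGGTCA.
Ihh promoter: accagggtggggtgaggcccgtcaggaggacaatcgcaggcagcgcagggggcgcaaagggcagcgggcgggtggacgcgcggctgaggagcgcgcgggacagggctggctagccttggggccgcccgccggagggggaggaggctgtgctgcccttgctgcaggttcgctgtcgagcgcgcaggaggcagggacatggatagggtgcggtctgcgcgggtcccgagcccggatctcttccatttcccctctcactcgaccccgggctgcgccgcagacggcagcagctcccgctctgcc
Dhh promoter: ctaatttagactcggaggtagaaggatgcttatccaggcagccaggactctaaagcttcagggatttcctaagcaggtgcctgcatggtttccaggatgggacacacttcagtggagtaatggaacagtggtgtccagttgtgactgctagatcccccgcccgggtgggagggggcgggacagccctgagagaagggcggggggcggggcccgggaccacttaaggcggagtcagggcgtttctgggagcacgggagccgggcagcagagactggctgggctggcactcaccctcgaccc
Ptch1 promoter: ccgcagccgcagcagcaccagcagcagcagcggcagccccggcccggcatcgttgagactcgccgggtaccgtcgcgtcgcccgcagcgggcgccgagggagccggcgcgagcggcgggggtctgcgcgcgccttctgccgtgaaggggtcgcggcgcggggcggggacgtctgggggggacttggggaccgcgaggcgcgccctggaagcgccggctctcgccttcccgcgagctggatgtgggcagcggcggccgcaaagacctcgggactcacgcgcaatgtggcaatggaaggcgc
Hhip promoter: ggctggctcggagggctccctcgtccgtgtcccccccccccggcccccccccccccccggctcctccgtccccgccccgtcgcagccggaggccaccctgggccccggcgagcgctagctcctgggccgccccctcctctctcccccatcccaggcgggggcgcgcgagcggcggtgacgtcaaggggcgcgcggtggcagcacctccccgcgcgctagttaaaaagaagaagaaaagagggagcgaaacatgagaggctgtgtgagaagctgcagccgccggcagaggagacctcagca
Fbln5 promoter: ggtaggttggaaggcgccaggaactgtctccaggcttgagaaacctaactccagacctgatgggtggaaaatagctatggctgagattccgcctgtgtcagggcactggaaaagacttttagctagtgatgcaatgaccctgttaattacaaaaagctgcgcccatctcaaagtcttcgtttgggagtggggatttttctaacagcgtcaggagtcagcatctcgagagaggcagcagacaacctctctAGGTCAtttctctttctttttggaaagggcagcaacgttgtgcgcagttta

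Of the 10 members, 9 had an entry in the promoter table, with 10 windows in all. Both strands were searched for GACCACCCA, the GLI consensus, for CAAGGTCA, a site of the NR5A1 (SF1) protein, and for AGGTCA, the half-site of retinoic acid receptors and other nuclear receptors, which CAAGGTCA contains. No member window held GACCACCCA, which occurs in 0.253% of 32851 promoters, or CAAGGTCA, which occurs in 1.56%. A single window, the second of Fbln5, held AGGTCA, which occurs in 16.3% of promoters. These letters are not in the other windows, which says nothing of sites elsewhere.

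Libraries held 21064856 to 25920131 counts. The targeted genes were detected in every library; the counts cover whole genes, floxed exons included, and cells with and without Cre. Rarg was at 3.63 to 4.65 FPKM in Rar mutants and 4.93 to 5.30 in Dmrt1 het Rar mutants, against 5.85 to 7.91 in controls, with no overlap (log2 fold change of all Rar-deleted ovaries -0.64, SE 0.14, edgeR adjusted p = 0.190). Rara was at 4.68 to 6.98 and 6.53 to 6.81 FPKM in the mutant groups, against 4.55 to 8.45 in controls, and Rarb at 0.80 to 0.947 and 0.688 to 0.86, against 0.788 to 1.501. The number in the sample title separated the libraries on the first principal component, which held 34.9% of the variance. Rar mutant 1, both Dmrt1 het Rar mutants and control 1 have numbers under 7800 and scored -55.8 to -44.1, whereas the remaining 6 scored 4.44 to 57.9. No Dmrt1 het Rar mutant has a higher number, so that group could be set against libraries of higher number only through a fit with the number as a term. Markers of oocytes, granulosa cells, theca steroidogenic cells, stroma and endothelium, listed to check the tissue, were detected in every library. In whole-ovary RNA, fewer cells of a type and less RNA per cell cannot be told apart.

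In controls the members spanned a wide range of levels per transcript length. Mgarp, which encodes a mitochondrial protein of steroidogenic cells, had the highest mean, 244 ± 83.1 FPKM (SD, n = 5), at the 98.5th percentile of the 24158 genes detected there. The ligand genes followed, Ihh at 16.6 ± 3.61 and Dhh at 11.4 ± 3.13 FPKM, then Ptch1 at 8.92 ± 1.84 FPKM. Gli1 had 3.68 ± 0.623 FPKM, Fbln5 3.51 ± 0.667 FPKM and Thbs2 2.66 ± 0.723 FPKM. Insl3 had 1.71 ± 1.79, Hhip 1.07 ± 0.28 and Aox4 0.284 ± 0.0475 FPKM. The control ranges of Ihh, Dhh and Ptch1 overlapped from neighbour to neighbour, as did those from Gli1 down to Hhip. The ranges did not overlap between Mgarp and Ihh, between Ptch1 and Gli1, or between Hhip and Aox4. Receipt of the signal was represented by Smo, which encodes the SMO protein, at 17.4 to 19.2 FPKM in Rar mutants, 18.6 to 20.9 in Dmrt1 het Rar mutants and 17.8 to 21.3 in controls.

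Positions of the members below are GENCODE M21 gene spans on GRCm38.

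**Figure D1:**
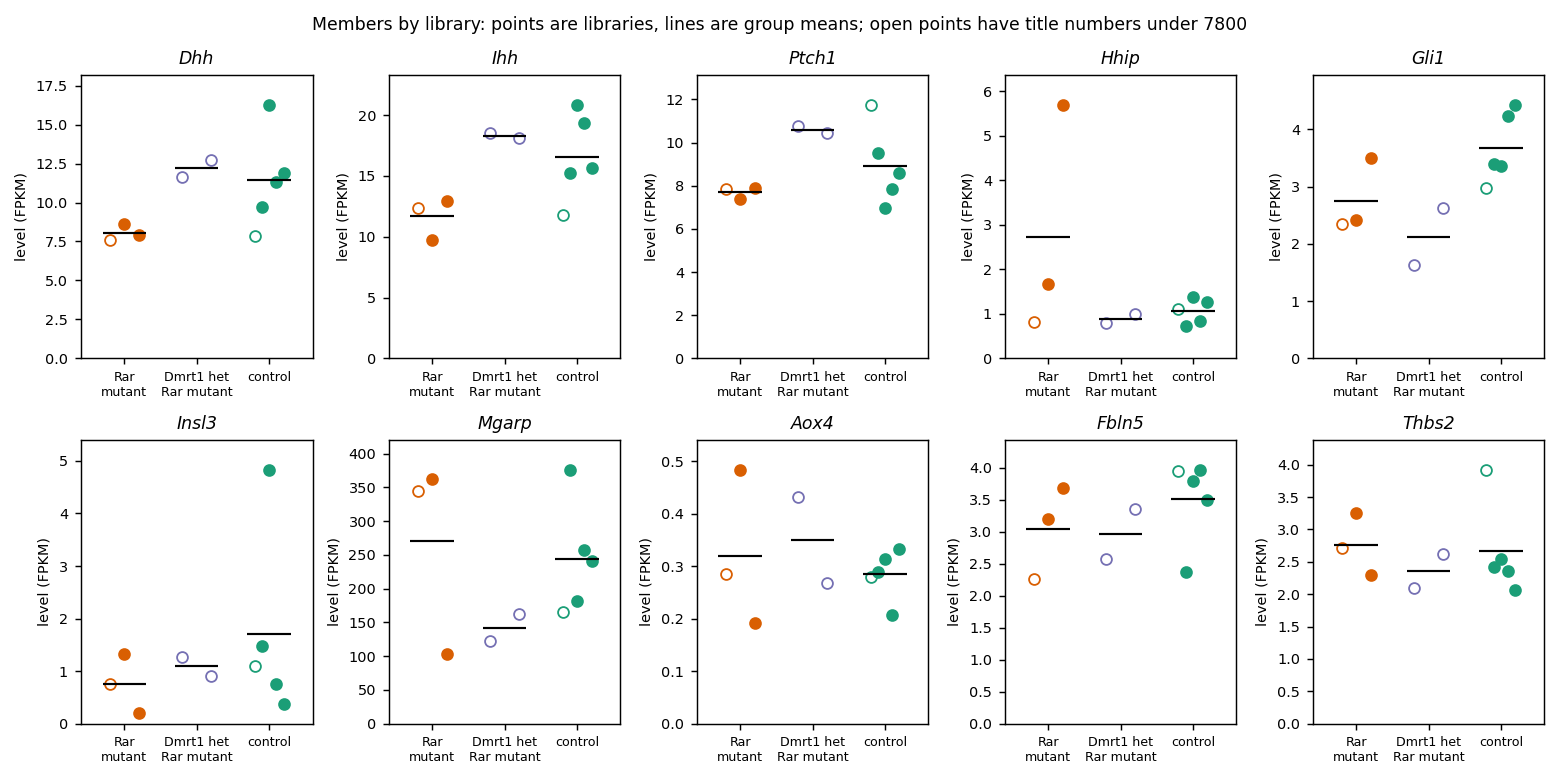
Level of each of the 10 members (FPKM, linear axis from 0) in Rar mutants (n = 3), Dmrt1 het Rar mutants (n = 2) and controls (n = 5). Points are libraries, lines are group means, and open points are the 4 libraries with title numbers under 7800; the groups overlap in most panels, and Hhip of Rar mutant 3 (5.69 FPKM) and Insl3 of control 3 (4.82 FPKM) lie far from the other points.

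Groups that did not overlap in FPKM were also counted. All Rar-deleted ovaries were apart from controls for 0 of 10 members and for 1.72% of genes. Rar mutants were apart from controls for 0 members and for 5.14% of genes. Dmrt1 het Rar mutants were apart from controls for 2 members, Gli1 and Mgarp, and for 28.3% of genes. They were apart from Rar mutants for 3 members, Ihh, Dhh and Ptch1, and for 39.2% of genes. At an unadjusted p under 0.05, 1 member differed for all Rar-deleted ovaries (8.47% of genes), 3 in Rar mutants (9.45%), and 1 in the Dmrt1 het group (17.3%), each over controls. DESeq2 called 0 members in each of these. Median log2 fold changes of the 10 members in this order were -0.18, -0.22 and -0.21, against 0.00, -0.02 and -0.02 over all genes tested. The comparisons with controls share the same 5 control libraries, so their values are not independent of each other. The labels do not state that the libraries came from separate animals, and the p-values measure the spread between these samples.

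**Figure D2:**
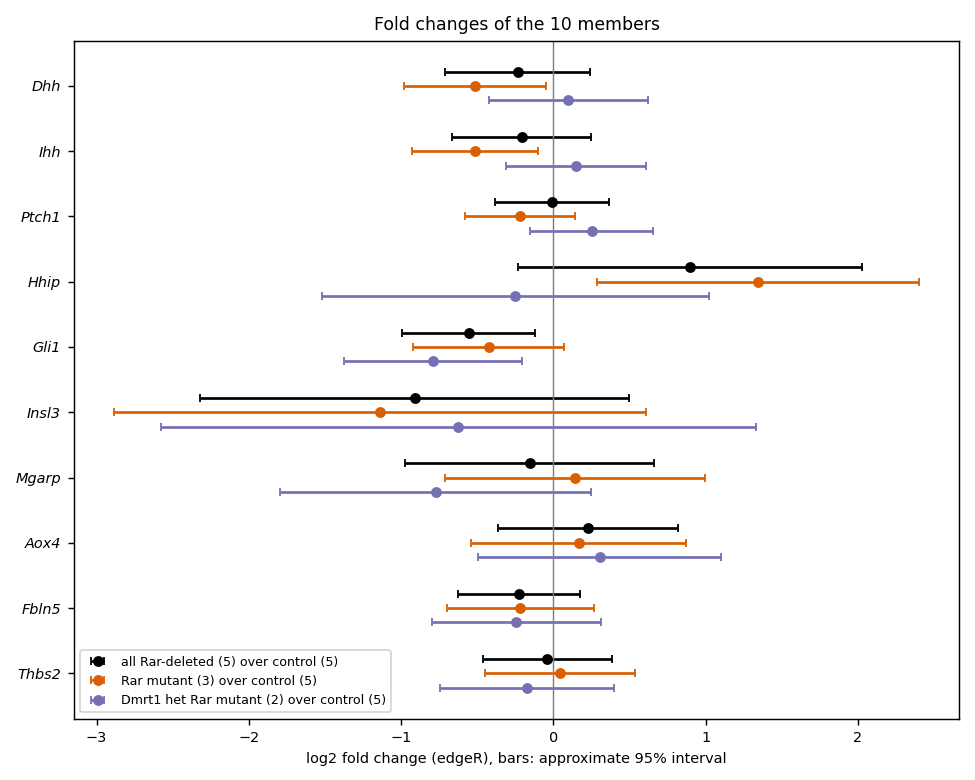
Log2 fold changes of the 10 members by edgeR, with approximate 95% intervals, for all Rar-deleted ovaries (n = 5), Rar mutants (n = 3) and Dmrt1 het Rar mutants (n = 2), each over 5 controls. The interval lies below 0 for Gli1 in all Rar-deleted ovaries (-0.99 to -0.12) and in Dmrt1 het Rar mutants (-1.37 to -0.21) and for Ihh and Dhh in Rar mutants, and above 0 for Hhip in Rar mutants (0.28 to 2.401), with none called after adjustment.

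Ihh (ENSMUSG00000006538, chromosome 1, 74945315 to 74951672), the ligand gene of growing follicles with the higher level, was lower in Rar mutants by unadjusted p, and its difference did not pass adjustment. It had 12.3, 9.76 and 13.0 FPKM in Rar mutants 1 to 3, 18.6 and 18.1 FPKM in Dmrt1 het Rar mutants 1 and 2, and 11.8, 15.2, 20.8, 19.4 and 15.6 FPKM in controls 1 to 5. The Rar mutants lay below the control mean in 3 of 3, yet all but Rar mutant 2 were above control 1. The Dmrt1 het Rar mutants lay within the control range and above all Rar mutants. The log2 fold change of Rar mutants over controls was -0.51 (SE 0.19, unadjusted p = 0.0193, edgeR adjusted p = 0.385). It was 0.15 (SE 0.21, edgeR adjusted p = 0.722) for Dmrt1 het Rar mutants over controls. Among libraries of higher title number alone, the 2 Rar mutants were at -0.66 over the 4 controls on the log2 scale (edgeR adjusted p = 0.170).

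Dhh (ENSMUSG00000023000, chromosome 15, 98891152 to 98898540), the second ligand gene, showed the same arrangement of groups. It had 7.58, 8.63 and 7.89 FPKM in Rar mutants, 11.7 and 12.7 FPKM in Dmrt1 het Rar mutants, and 7.87, 9.69, 16.3, 11.3 and 11.9 FPKM in controls. All Rar mutants lay below 4 of the 5 controls, and control 1 lay within their range. The log2 fold change was -0.52 (SE 0.21, unadjusted p = 0.0328, edgeR adjusted p = 0.466) for Rar mutants and 0.10 (SE 0.24, edgeR adjusted p = 0.842) for Dmrt1 het Rar mutants over controls. Within the higher title numbers it was -0.58 for Rar mutants (edgeR adjusted p = 0.272). Of its 4399 exonic bases in GENCODE M21, 546 (12.4%) are shared on the same strand with Rhebl1, which had 122 to 209 counts a library against 430 to 844 for Dhh, so reads there may be assigned to either gene.

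Genes of granulosa cells, where both ligands are made, also varied between libraries. The 11 marker genes summed to 1755, 1401 and 2385 FPKM in Rar mutants, 2538 and 2699 FPKM in Dmrt1 het Rar mutants, and 1584, 1935, 4145, 2291 and 2342 FPKM in controls. Control 3 was highest for the sum, for Ihh and for Dhh, but Rar mutant 3 had a higher sum than controls 4 and 5 with lower Ihh and Dhh. Inha alone made up 69.4% of the sum in Rar mutant 3. In that library 5 of the 11 genes were below the lowest control and 0 were above the highest. The share of all genes outside the control range in a single library was not computed. For Rar mutants, 11 of 11 granulosa genes had negative log2 fold changes over controls (median -0.60, against -0.02 over all genes), none called and 4 at an unadjusted p under 0.05. Their part in the ligand values was not tested. The genes whose rank order over the 10 libraries was most like that of Ihh, among 16647 genes of mean CPM of at least 1, were Samd4b (Spearman rho 0.939), Fam118a (0.927) and Nppc (0.927), and Dhh had 0.782.

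Ptch1 (ENSMUSG00000021466, chromosome 13, 63508328 to 63573598), receptor and target gene, lay within the control range in every Rar-deleted ovary. It had 7.86, 7.37 and 7.87 FPKM in Rar mutants, 10.7 and 10.5 FPKM in Dmrt1 het Rar mutants, and 11.7, 9.50, 6.95, 7.83 and 8.59 FPKM in controls. The Rar mutants lay in the lower part of the control range and within a narrow span, and the Dmrt1 het Rar mutants in its upper part. Log2 fold changes over controls were -0.22 (SE 0.16, edgeR adjusted p = 0.754) for Rar mutants, 0.25 (SE 0.18, edgeR adjusted p = 0.468) for Dmrt1 het Rar mutants and -0.01 for all Rar-deleted ovaries, with an approximate 95% interval of -0.39 to 0.37.

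Hhip (ENSMUSG00000064325, chromosome 8, 79965851 to 80058006) encodes a membrane protein that binds Hedgehog ligands and limits the signal, and it is a target gene of the pathway. Its values in Rar mutants were uneven, 0.825, 1.68 and 5.69 FPKM, whereas Dmrt1 het Rar mutants had 0.796 and 0.992 FPKM and controls 1.11, 0.72, 1.39, 0.844 and 1.26 FPKM. Rar mutant 3 was far above every other library, Rar mutant 2 was above the highest control, and Rar mutant 1 lay within the control range. The log2 fold change of Rar mutants over controls was 1.34 (SE 0.48, unadjusted p = 0.0176, edgeR adjusted p = 0.372). It was 0.22 without Rar mutant 3 (edgeR adjusted p = 0.945) and 1.77 without Rar mutant 1, when it passed at an edgeR adjusted p of 0.0480. Pooled over all Rar-deleted ovaries it was 0.89 (SE 0.52, edgeR adjusted p = 0.641), and 0.01 without Rar mutant 3.

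Many genes of a list for ovulation were high in Rar mutants 2 and 3. The 11 ovulation genes measured summed to 13.1, 159.6 and 1310 FPKM in Rar mutants 1 to 3, to 21.4 and 12.6 FPKM in Dmrt1 het Rar mutants, and to 9.53 to 17.0 FPKM in controls. For Rar mutants over controls 11 of 11 had positive log2 fold changes (median 4.93), none called, and Sult1e1 was at 0 in 2 libraries. Above the highest control were 3 genes in Rar mutant 1, 9 in Rar mutant 2 (all but Pgr and Ptx3) and 10 in Rar mutant 3 (all but Edn2). The share of all genes above the highest control in a single library was not computed. A single gene held most of each sum, Sult1e1 with 858 FPKM (65.5%) in Rar mutant 3 and Adamts1 with 116 FPKM (72.4%) in Rar mutant 2. The genes did not share one order: Adamts1 and Edn2 were at 32.1 and 0.83 FPKM in Rar mutant 3, and at 116 and 23.1 FPKM in Rar mutant 2. The 4 adrenal cortex genes summed to 1.31, 207 and 209.8 FPKM in Rar mutants, 0.648 and 0.689 FPKM in Dmrt1 het Rar mutants and 0.434 to 0.701 FPKM in controls, and Akr1b7 made up 92.4% of the sum in Rar mutant 2 and 98.1% in Rar mutant 3. Cyp21a1 and Mc2r, the other adrenal cortex genes besides Akr1b7 and Cyp11b1, were not above the highest control in Rar mutants 2 and 3. Cyp21a1 had 0 to 0.019 FPKM in Rar mutants and 0 to 0.106 FPKM in controls. The part of the ovulation or the adrenal cortex genes in the Hhip values was not tested.

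Gli1 (ENSMUSG00000025407, chromosome 10, 127329882 to 127341974), a transcription factor gene often read as a measure of pathway activity, was lower in Rar-deleted ovaries by unadjusted p. It had 2.36, 2.42 and 3.50 FPKM in Rar mutants, 1.63 and 2.62 FPKM in Dmrt1 het Rar mutants, and 2.98, 3.39, 3.35, 4.23 and 4.43 FPKM in controls, from 143 to 407 counts. All 5 Rar-deleted ovaries lay below the control mean and 4 lay below the lowest control, with Rar mutant 3 inside the control range. The pooled log2 fold change was -0.56 (SE 0.20, unadjusted p = 0.0167, edgeR adjusted p = 0.527), and -0.41 with the title number as a term (edgeR adjusted p = 0.416). By group it was -0.43 (SE 0.22, edgeR adjusted p = 0.611) for Rar mutants and -0.79 (SE 0.26, edgeR adjusted p = 0.243) for Dmrt1 het Rar mutants, which were both below all controls. A small share of its exonic bases lies opposite other genes, 265 of 4995 opposite Gm47200.

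Markers of other cell types differed in the same ovaries. In Dmrt1 het Rar mutants, where Gli1 and Mgarp lay below all controls, all 8 surface epithelium genes were below the lowest control in both libraries, with summed levels of 59.2 to 70.9 FPKM, against 94.3 to 218.6 FPKM in controls. Their log2 fold changes were negative for 8 of 8 (median -1.23, against -0.02 over all genes). All 8 had an unadjusted p under 0.05 and none was called. Over Rar mutants, which summed to 92.2 to 187.7 FPKM, 8 of 8 were negative and 7 reached that level (median -1.06). The 4 libraries with title numbers under 7800 had the lowest surface epithelium sums. Besides the Dmrt1 het Rar mutants these were Rar mutant 1 (92.2 FPKM) and control 1 (94.3 FPKM). The other libraries had 159.2 to 218.6 FPKM, and the part of the title number was not tested. The 6 smooth muscle genes were all negative in Dmrt1 het Rar mutants over controls (median -0.56, none called) and all positive in Rar mutants (median 0.41). In both comparisons 0 of them had an unadjusted p under 0.05. They summed to 221, 465.4 and 510.3 FPKM in Rar mutants 1 to 3. Sums were 211.2 and 255 FPKM in Dmrt1 het Rar mutants and 207.8 to 500.4 FPKM in controls. Rar mutant 1 had 3 smooth muscle genes below the lowest control, and Rar mutants 2 and 3 had 0. Of the 10 oocyte genes, 10 were negative for all Rar-deleted ovaries (median -0.42) and for Rar mutants (median -0.35). Their summed levels were 99.2, 272.5 and 340.5 FPKM in Rar mutants 1 to 3. The sums were 189.9 to 232 FPKM in Dmrt1 het Rar mutants and 238 to 359.5 FPKM in controls. Rar mutant 1 had 10 oocyte genes below the lowest control, and Rar mutants 2 and 3 had 0. Dmrt1 het Rar mutant 1 had 3 below it, and Dmrt1 het Rar mutant 2 had 9. No gene of these 3 lists was at 0 in any library, and their part in the members' values was not tested. The share of all genes below the lowest control in a single library was not computed.

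No correlation of Gli1 with the ligands or the other target genes across libraries passed its test. Over the 10 libraries (log2 CPM), Pearson's r of Gli1 was 0.140 with Dhh (Spearman's rho 0.176), 0.151 with Ihh (0.249), -0.349 with Ptch1 (-0.249) and 0.212 with Hhip (0.285). In permutation tests with 100000 resamples, 2-sided and adjusted over the 4 relations, p was 0.701 for each r and 0.633 for each rho, and unadjusted p of r was 0.701, 0.680, 0.326 and 0.533. Without the libraries farthest in Gli1, Dmrt1 het Rar mutant 1 and control 5, r was 0.312 with Dhh, 0.580 with Ihh, -0.130 with Ptch1 and 0.0693 with Hhip. Within the 6 libraries of higher title number r was 0.367, 0.685, 0.376 and -0.246 in the same order, with unadjusted p of 0.469, 0.142, 0.457 and 0.619 by exact permutation tests (adjusted over the 4 relations 0.619, 0.567, 0.619 and 0.619), so the signs for Ptch1 and Hhip were the opposite there. With the mean of each of the 3 groups removed, r was 0.248 with Dhh, 0.348 with Ihh, -0.288 with Ptch1 and 0.504 with Hhip, with unadjusted permutation p of 0.507, 0.329, 0.451 and 0.139 (adjusted 0.507 for each). The lower title numbers hold 4 libraries, too few for a correlation. The genes most like Gli1 in rank order were Speer5-ps1 (rho 0.939), Gm36958 (0.927) and Syngr3 (0.927).

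**Figure D3:**
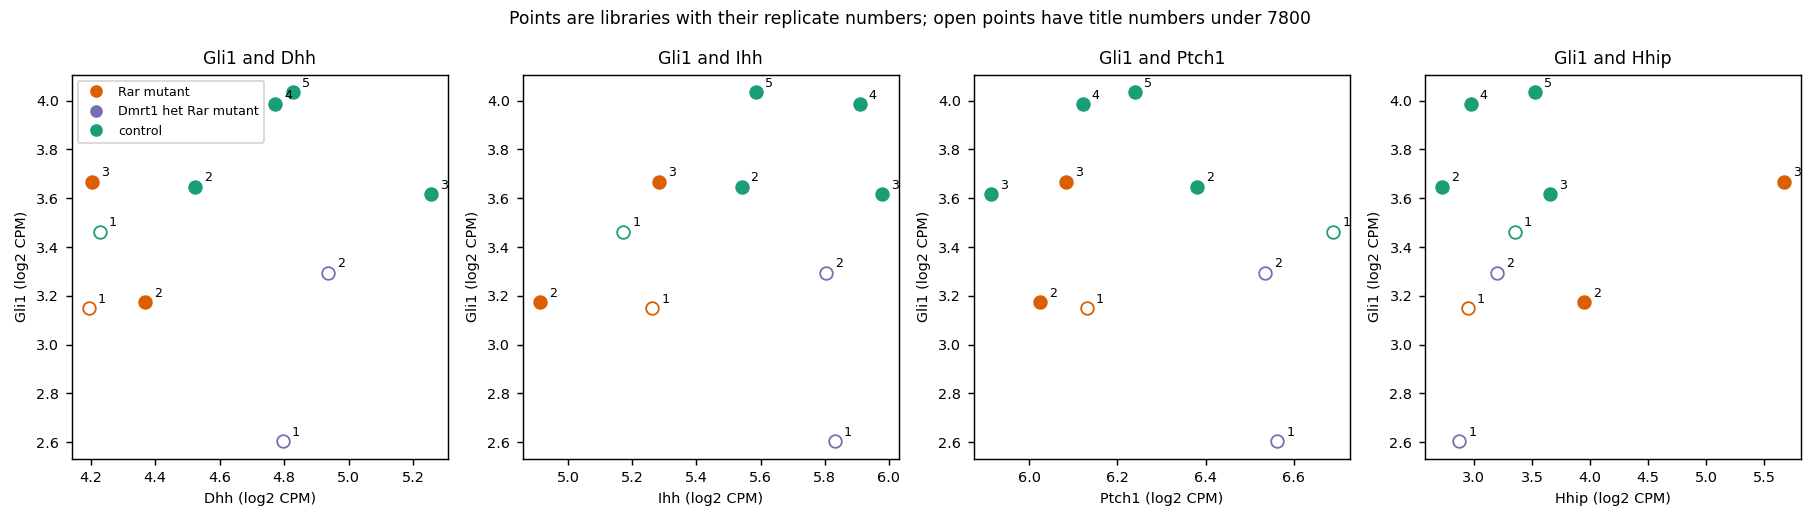
Gli1 against Dhh, Ihh, Ptch1 and Hhip (log2 CPM on both axes) in the 10 libraries, labelled by replicate number and coloured by group, with open points for title numbers under 7800. Pearson's r was 0.140, 0.151, -0.349 and 0.212, and in each panel the Rar-deleted libraries lie mostly below the controls along the Gli1 axis.

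**Figure D4:**
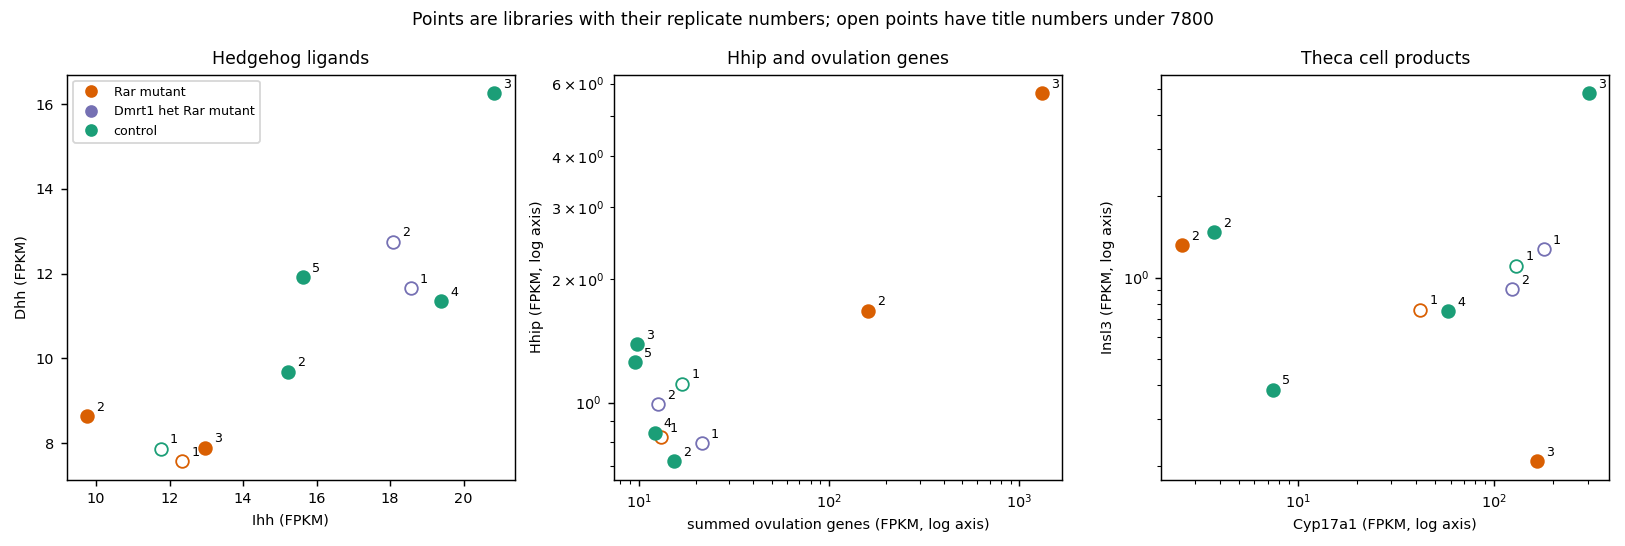
Each point is a library with its replicate number, open for title numbers under 7800. Ihh and Dhh are both highest in control 3 (left, FPKM), Hhip and the summed ovulation genes are both highest in Rar mutant 3 and next in Rar mutant 2 (middle, FPKM on log axes), and Insl3 is highest in control 3, which also has the most Cyp17a1, while Rar mutant 3 combines the lowest Insl3 with 166 FPKM of Cyp17a1 (right, FPKM on log axes).

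Insl3 (ENSMUSG00000079019, chromosome 8, 71689214 to 71690575), the peptide hormone gene of theca cells, was near the limit of detection. It had 12, 20 and 3 counts in Rar mutants (0.759, 1.32 and 0.209 FPKM), 19 and 13 counts in Dmrt1 het Rar mutants (1.27 and 0.907 FPKM), and 17, 23, 66, 12 and 6 counts in controls (1.11, 1.47, 4.82, 0.749 and 0.384 FPKM). Control 3 alone raised the control mean, since the other 4 controls span the values of 4 of the 5 Rar-deleted ovaries. Pooled, Insl3 was at a log2 fold change of -0.91 (SE 0.64, edgeR adjusted p = 0.661), and -0.05 without control 3. Insl3 lies wholly inside the span of Jak3 on the same strand, and 404 of its 623 exonic bases (64.8%) are also exonic in Jak3, which had 152 to 314 counts a library. The counting rule for shared bases is not given in the sources used here, so these counts are an uncertain measure of the transcript. The genes most like Insl3 in rank order were Gnal (rho 0.927), Gm43270 (0.891) and Slc8a2 (0.891).

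The 7 steroidogenic genes listed for theca cells were measured at higher FPKM than Insl3 in every library. These are whole-ovary values, so the cells that made the transcripts are not known. Cyp17a1, the androgen-making enzyme that defines steroidogenic theca cells, is named after its values were seen. It had 42.1, 2.56 and 166 FPKM in Rar mutants, 180 and 123 FPKM in Dmrt1 het Rar mutants, and 130, 3.73, 305, 58.2 and 7.46 FPKM in controls. Both Rar mutants and controls included libraries under 10 and over 100 FPKM. None of the 7 steroidogenic genes was called in any comparison. By the pooled fit 5 had positive and 2 negative log2 fold changes (median 0.18, against 0.00 over all genes). The mutant groups were unlike in this, with 4 positive and 3 negative for Rar mutants (median 0.38) and 1 positive and 6 negative for Dmrt1 het Rar mutants over controls (median -0.28), and a median of -0.56 for Dmrt1 het Rar mutants over Rar mutants. The smallest p for Rar mutants over controls belonged to Por, the electron donor of steroid hydroxylases (0.98, SE 0.32, edgeR adjusted p = 0.327), Star, which carries cholesterol into mitochondria (2.27, SE 0.82, edgeR adjusted p = 0.380), and Scarb1, a lipoprotein receptor (0.77, SE 0.33, edgeR adjusted p = 0.489). Star was at 152, 249.7 and 1582 FPKM in Rar mutants 1 to 3, 33.5 and 175 FPKM in Dmrt1 het Rar mutants and 19.7 to 185 FPKM in controls, so the high value is again in Rar mutant 3.

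Of 8 genes of theca-associated stroma, Tcf21, a transcription factor gene of mesenchymal cells, had the smallest p in the pooled comparison. It was lower in all Rar-deleted ovaries without overlap, at 30.5 to 39.0 FPKM in Rar mutants and 29.8 to 30.7 in Dmrt1 het Rar mutants, against 39.8 to 53.0 in controls (log2 fold change -0.50, SE 0.12, edgeR adjusted p = 0.258). The list as a whole had 4 positive and 4 negative pooled log2 fold changes (median -0.02). It had 5 positive and 3 negative for Rar mutants (median 0.08) and 1 positive and 7 negative for Dmrt1 het Rar mutants over controls (median -0.36), and a median of -0.42 for Dmrt1 het Rar mutants over Rar mutants, with none called.

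Mgarp (ENSMUSG00000037161, chromosome 3, 51388412 to 51396738) spanned a 3.52-fold range among Rar mutants and a 2.27-fold range among controls. It had 345, 363 and 103 FPKM in Rar mutants, 122 and 163 FPKM in Dmrt1 het Rar mutants, and 165, 375, 181, 258 and 242 FPKM in controls. Rar mutants 1 and 2 lay near the highest control and Rar mutant 3 below the lowest. The Dmrt1 het Rar mutants were both below all controls, control 1 by a narrow margin (log2 fold change -0.77, SE 0.46, edgeR adjusted p = 0.380). Rar mutants over controls gave a log2 fold change of 0.14 (SE 0.39, edgeR adjusted p = 0.949), and -0.18 within the higher title numbers.

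Aox4 (ENSMUSG00000038242, chromosome 1, 58210397 to 58268597), an aldehyde oxidase that can oxidise retinal to retinoic acid, had the lowest level of the members. It had 0.286, 0.483 and 0.191 FPKM in Rar mutants, 0.432 and 0.269 FPKM in Dmrt1 het Rar mutants, and 0.279, 0.289, 0.314, 0.208 and 0.332 FPKM in controls, from 37 to 99 counts. The Rar mutants lay above, within and below the control range (pooled log2 fold change 0.23, SE 0.27, edgeR adjusted p = 0.779). Its neighbour in the family, Aox2, was higher in all 5 Rar-deleted ovaries, at 0.455 to 0.609 FPKM in Rar mutants and 0.680 to 0.686 in Dmrt1 het Rar mutants, against 0.330 to 0.450 in controls. That difference did not pass adjustment (log2 fold change 0.63, SE 0.19, edgeR adjusted p = 0.450). In the same family, the pooled log2 fold change was -0.006 for Aox1 (edgeR adjusted p = 0.997) and 0.09 for Aox3 (edgeR adjusted p = 0.961).

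The matrix genes overlapped between all groups. Fbln5 (ENSMUSG00000021186, chromosome 12, 101746565 to 101819055), which encodes a protein of elastic fibre assembly, had 2.27, 3.20 and 3.68 FPKM in Rar mutants, 2.58 and 3.36 FPKM in Dmrt1 het Rar mutants, and 3.95, 2.37, 3.80, 3.96 and 3.50 FPKM in controls (pooled log2 fold change -0.22, SE 0.18, edgeR adjusted p = 0.684). Thbs2 (ENSMUSG00000023885, chromosome 17, 14665500 to 14694235), which encodes an inhibitor of angiogenesis, had 2.72, 3.25 and 2.29 FPKM in Rar mutants, 2.09 and 2.61 FPKM in Dmrt1 het Rar mutants, and 3.91, 2.43, 2.54, 2.36 and 2.06 FPKM in controls (pooled log2 fold change -0.04, SE 0.19, edgeR adjusted p = 0.954). Control 1 was the highest library for Thbs2 and the remaining libraries were mixed. Lox, which cross-links elastin, had the largest fold change among partner genes for Rar mutants (1.22, SE 0.39, edgeR adjusted p = 0.301), with 16.3 FPKM in Rar mutant 2, 4.47 and 7.11 FPKM in the other Rar mutants, 4.46 and 6.32 FPKM in Dmrt1 het Rar mutants and 2.82 to 5.86 FPKM in controls.

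Dmrt1 het Rar mutants were also compared directly with Rar mutants, which asks whether both kinds of Rar-deleted ovary differ. Ihh, Dhh and Ptch1 were higher in both Dmrt1 het Rar mutants than in any Rar mutant, by log2 fold changes of 0.66 (SE 0.23, edgeR adjusted p = 0.233), 0.61 (SE 0.26, edgeR adjusted p = 0.272) and 0.47 (SE 0.20, edgeR adjusted p = 0.279). Hhip was at -1.59 (SE 0.65, edgeR adjusted p = 0.266), and -0.46 without Rar mutant 3. These mutant groups did not overlap for 39.2% of all genes tested. By edgeR 0 genes were called, while unadjusted p was under 0.05 for 4 of 10 members and for 16.9% of genes. DESeq2 called 0 members and 626 genes. All 11 granulosa genes had positive log2 fold changes in this comparison (median 0.83, against -0.01 over all genes). Of these, 7 had an unadjusted p under 0.05 and none was called. Their part in the ligand values was not tested.

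The other genes of the Hedgehog pathway were examined from a list of ligand processing, receptor, ciliary and GLI control genes. Of 20 listed, Shh was not analysed here and 19 were tested, none called in any comparison. In the pooled comparison 8 had positive and 11 negative log2 fold changes (median -0.01), for Rar mutants 7 and 12 (median -0.01), and for Dmrt1 het Rar mutants 9 and 10 (median -0.02). Evc2, a ciliary protein gene that relays SMO activity, was at 8.03 to 10.5 FPKM in Rar mutants, below the 11.3 to 15.1 FPKM of controls, with 11.6 and 13.1 FPKM in Dmrt1 het Rar mutants (log2 fold change of Rar mutants -0.50, SE 0.15, edgeR adjusted p = 0.246). Gas1, a co-receptor gene, had a log2 fold change of -0.91 in Dmrt1 het Rar mutants over controls (SE 0.33, edgeR adjusted p = 0.249). Its levels overlapped, at 6.44 and 10.1 FPKM in Dmrt1 het Rar mutants and 8.30 to 21.8 FPKM in controls. Sufu, the inhibitor of GLI factors, was at 6.24 and 7.11 FPKM in Dmrt1 het Rar mutants and at 4.47 to 5.02 FPKM in Rar mutants (log2 fold change 0.52, SE 0.14, edgeR adjusted p = 0.206), with controls between them at 5.05 to 5.86 FPKM.

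**Figure D5:**
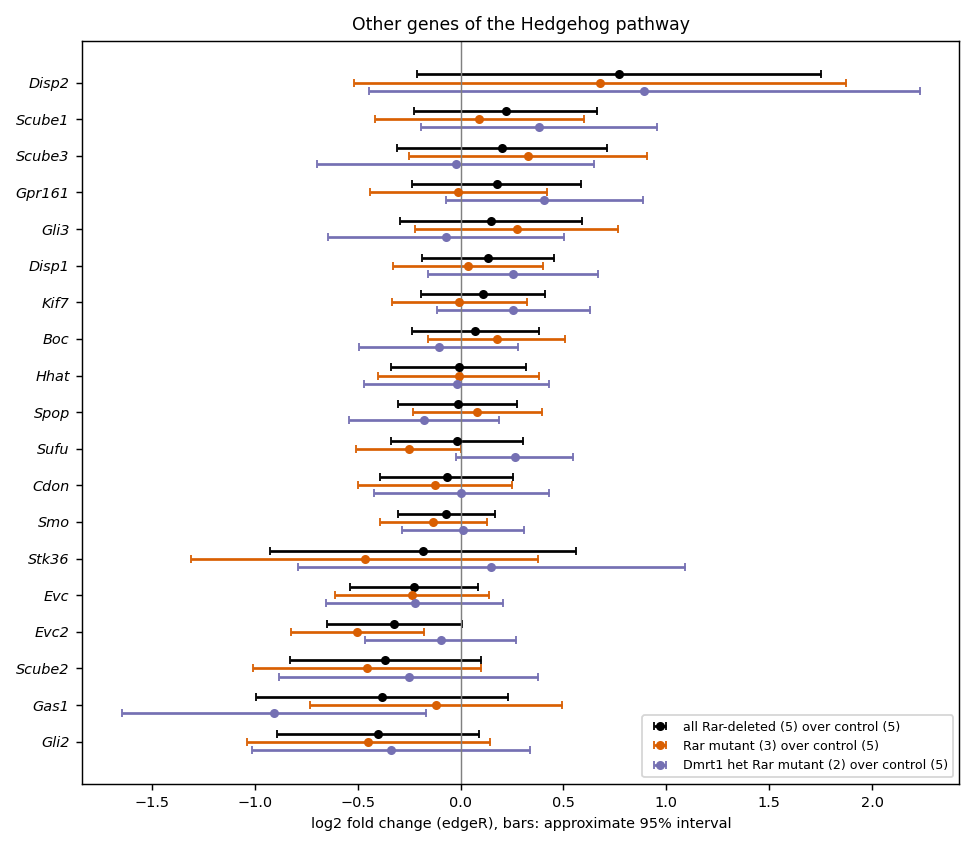
Log2 fold changes by edgeR with approximate 95% intervals of 19 other Hedgehog pathway genes, for all Rar-deleted ovaries (n = 5), Rar mutants (n = 3) and Dmrt1 het Rar mutants (n = 2) over 5 controls. Intervals lie below 0 for Evc2 in Rar mutants (-0.82 to -0.18) and Gas1 in Dmrt1 het Rar mutants (-1.64 to -0.17); the others include 0, and no gene was called.

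In the authors' deposited table of differential expression, which lists 185 genes, none of the 10 members is present, and 2 genes of the lists used here, Adamts1 and Runx1, are.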

How the data were processed

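Per the labels' protocols, RNA of whole gonads was extracted with Trizol, and a stranded mRNA kit was used for the libraries. Per the submitters' processing notes, Trimmomatic 0.32, STAR 2.4.2a, SAMtools 1.0 and DESeq2 1.12.3 were used with GRCm38 (mm10); the counting tool, its strand setting and the annotation release are not given in the sources used here. The authors deposited raw counts for 24306 genes and FPKM values. Dividing FPKM by count gave library factors within 0.0644% of median-of-ratios size factors, so the authors had scaled FPKM by these. The authors' deposited table of genotype differences, used only to look up members, has columns for a log2 fold change and its error, a Wald score, p-values and the signal (mean normalised count), per the file headers.

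Samples were grouped by their titles. The main test was edgeR 4.0.16 (R 4.3.3) by quasi-likelihood on the counts (TMM, filterByExpr, robust), 2-sided, calling a Benjamini-Hochberg adjusted p under 0.05 over all genes tested. All Rar-deleted ovaries were tested against controls in a 2-group fit, and the other comparisons in a 3-group fit with a shared spread. The SE of a log2 fold change is approximate (its size over the square root of F), and 95% intervals take the t quantile on the degrees of freedom of the test. Log2 CPM for correlations used a prior count of 2. Scripts were tested on simulated data. Alternatives were DESeq2 1.42.0, limma 3.58.1 on log2(FPKM + 1) and log2(FPKM + 0.1), no filter, a replicate block, the title number as a term, the higher title numbers alone, 2 groups alone, for correlations the removal of group means, and leaving out each library. For counting error only, a gene at 0 could have up to 3 counts (0.116 to 0.142 CPM). Gene positions and overlaps are from GENCODE M21 on GRCm38, and promoters from RefSeq (GRCm38.p6).

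The members and the 13 other lists were chosen with earlier results of these data known. Genes named by rule are the 10 members and up to 3 genes a list and comparison with the smallest p. The rule also covers the 3 genes of most similar rank order to Ihh, Gli1 and Insl3, and a part of these is printed. Further genes named fall outside this rule, among them Smo, Pgr, Inha, Cyp17a1, Cyp21a1, Aox1 and Aox3. Of the lists, those for corpus luteum (5 genes, pooled median log2 fold change 0.06), endothelium (7, -0.13) and macrophages (4, 0.02) had 0 genes called in all 4 comparisons, with 0 to 2 at an unadjusted p under 0.05. For 1 gene of the Hedgehog pathway list, values are not reported here.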

Additional observations from a re-analysis of the deposited data

Results flagged for a closer look

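Hhip stood out among the 5 Rar-deleted ovaries because Rar mutant 3, at 5.69 FPKM, lay far from the next value of 1.68 FPKM relative to the range of the group. Insl3 did so among the 5 controls, where control 3 was at 4.82 FPKM and the next control at 1.47 FPKM. Thbs2 did so among the 5 controls through control 1, at 3.91 FPKM, with the next control at 2.54 FPKM. Chance alone gives about 1 in 20 groups such a gap, and 20 groups were examined.

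For 3 members every Rar mutant lay below and both Dmrt1 het Rar mutants lay above the control mean. The share of all genes with this arrangement was not computed. The mutant groups did not overlap in FPKM for 39.2% of all genes tested. The log2 fold changes of Dmrt1 het Rar mutants over Rar mutants were 0.61 for Dhh, 0.66 for Ihh and 0.47 for Ptch1. The test of this difference did not pass for any of them (edgeR adjusted p of 0.272, 0.233 and 0.279).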

How the results depend on the processing

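The call of 0 members held in all 4 comparisons under every alternative run except in Rar mutants against controls, where leaving out single libraries gave 0 to 1 members (Hhip, without Rar mutant 1). Numbers of all genes called moved more. DESeq2 called 180 genes for all Rar-deleted ovaries, 372 for Rar mutants, 329 for Dmrt1 het Rar mutants over controls and 626 for Dmrt1 het Rar mutants over Rar mutants. The title number as a term gave 40, 85 and 1 for the comparisons with controls, and the higher title numbers alone 142 for both the pooled and the Rar mutant comparison, which there hold the same libraries. The fit of 2 groups alone and limma on log2(FPKM + 1) each gave 1 gene for Rar mutants. Leaving out single libraries gave 5 to 52 genes for the pooled comparison, 1 to 384 for Rar mutants, 0 to 364 for Dmrt1 het Rar mutants and 0 to 335 for the difference between the mutant groups. In the pooled comparison, omitting controls 1 to 5 in turn gave 52, 11, 7, 5 and 8 genes, omitting either of the Dmrt1 het Rar mutants 6 or 5, and omitting Rar mutant 2 gave 5. For Rar mutants it was 384 without Rar mutant 1, 7 without control 2, and 1 without Rar mutant 3, control 3 or control 5. For Dmrt1 het Rar mutants it was 364 without control 1, 2 without controls 2, 3 or 5 or Rar mutant 3, 1 or 0 when either of its own libraries was omitted, and between the mutant groups 335 without Rar mutant 1 and 1 without control 1. The causes were not tested.

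Whether same-numbered libraries were paired cannot be settled by these data. Deviations from the group mean correlated at 0.435, 0.0160 and 0.244 for Rar mutants and controls 1 to 3. They did at 0.0781 and 0.0676 for Dmrt1 het Rar mutants 1 and 2. With controls of other numbers the ranges were -0.321 to 0.228, -0.397 to 0.242 and -0.271 to 0.174 for Rar mutants 1 to 3. For Dmrt1 het Rar mutants 1 and 2 they were -0.0676 to -0.0093 and -0.0781 to 0.018. That group holds 2 libraries, so their deviations from its mean mirror each other. Their correlations with a given control are therefore the same value with opposite signs, not separate observations. Rar mutant 1 and control 1 also share title numbers under 7800. With a replicate block, 0 genes were called for the pooled comparison and 0 for Dmrt1 het Rar mutants, and the log2 fold change took the other sign for Thbs2 in Rar mutants (-0.11), Hhip in Dmrt1 het Rar mutants (0.19) and Fbln5 between the mutant groups (0.10).

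Of 290 member fold changes under settings other than leaving out libraries, 280 kept their direction and their side of the threshold. Besides the block, the sign turned with the title number as a term for Mgarp in the pooled comparison (0.0018), Hhip in Dmrt1 het Rar mutants (0.32) and Fbln5 between the mutant groups (0.0682). In the higher title numbers alone it turned for Fbln5 (0.0033) and Thbs2 (0.23) in the pooled comparison and for Mgarp (-0.18) and Fbln5 (0.0033) in Rar mutants, and the correlation of Gli1 turned to 0.376 with Ptch1 and -0.246 with Hhip. Leaving out single libraries kept 375 of 400 and turned 24. In the pooled comparison the ranges crossed 0 for Thbs2 (-0.14 to 0.15), Ptch1 (-0.0912 to 0.1137) and Mgarp (-0.4171 to 0.0474). They did so in Rar mutants for Thbs2 (-0.11 to 0.22), Aox4 (-0.27 to 0.42) and Mgarp (-0.14 to 0.53). In Dmrt1 het Rar mutants they did for Thbs2 (-0.3365 to 0.0082), Aox4 (-0.0689 to 0.6121), Dhh (-0.0077 to 0.264) and Insl3 (-0.88 to 0.24), and between the mutant groups for Aox4 (-0.24 to 0.57) and Fbln5 (-0.23 to 0.15). The correlation of Gli1 with Ihh ranged from -0.0115 to 0.533. Insl3 had 3 to 66 counts a library and 6 to 66 among controls; how much of this spread is counting error was not tested.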
